A study of Mus musculus with 14 samples.

Results

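The proteasome is the large protease that degrades ubiquitin-tagged proteins, and this account describes the transcripts of its constitutive subunits in mouse muscle precursor cells at 3 ages. Members were the genes whose platform symbol begins with Psma, Psmb, Psmc or Psmd followed by a number, without the immunoproteasome subunits Psmb8, Psmb9 and Psmb10. The rule found 37 symbols of 18193 on the array with 1 gene per probe set. Of these, 16 belong to the core particle (Psma and Psmb), 20 to the regulatory particle (Psmc and Psmd), and 1, Psmc3ip, encodes a meiotic recombination factor that is no proteasome subunit. Psmc3ip was kept out of the counts of members below, and is named where another count includes it. The filter on dim probe sets was passed by 14 core members, 20 regulatory members and Psmc3ip, among 13579 genes tested. The core symbols Psma8 and Psmb11, which encode the testis and thymus forms of a subunit, were above the filter level on 0 arrays, with log2 intensities of 2.90 to 3.50 and 3.21 to 3.54.

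The study profiled untreated C57BL/6 mice with Affymetrix arrays, and its title concerns the circulating factor GDF11, with which no array here was treated. The arrays came from young mice of 2 months (n = 5), middle-aged mice of 12 months (n = 4) and aged mice of 24 months (n = 5). All carried RNA of skeletal muscle cells sorted as CD45-, Ter119-, Sca-1-, CD29+ and Cxcr4+, a gate used to enrich satellite cells, the stem cells of muscle. Whether the arrays come from separate animals is not stated in the labels, and the p-values then measure the spread between arrays, which may be technical in part. In such bulk RNA, fewer cells of a type and less RNA per cell cannot be told apart.

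The core particle is a barrel of stacked rings. Its outer rings of alpha subunits (Psma genes) gate the entrance, and its inner rings of beta subunits (Psmb genes) hold the active sites. The regulatory particle caps the barrel: its base, with a ring of ATPases (Psmc genes), unfolds the substrate, and its lid removes the ubiquitin chain. When proteasome activity is short, the transcription factor Nfe2l1 raises the transcription of subunit genes together. In skeletal muscle the system is best known for protein breakdown during atrophy, and satellite cells depend on it to proliferate.

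Promoter sequences were examined because the members are known to be regulated together. RefSeq (build GRCm38.p6) gave promoters for 28 of the 34 subunit members past the filter, from 250 bases before to 50 bases after the start of transcription. Psmb1, Psmb2, Psmb7, Psmc3, Psmd3 and Psmd7 were not matched. The core of the antioxidant response element, to which Nfe2l1 binds, was searched as TGACNNNGC on both strands, and CCAAT was searched likewise. TGACNNNGC was in 2 of 12 core promoters (16.7%) and 3 of 18 regulatory promoters (16.7%), against 12.4% of all promoters of that length. CCAAT was in 6 of 12 core promoters (50%) and 5 of 18 regulatory promoters (27.8%), against 37.4% of all. The 12 core promoters belong to 11 genes and the 18 regulatory promoters to 17, and a match is a description of letters, not a binding site.

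The 100 bases before the start are shown 5′ to 3′ along the gene for 3 promoters that hold a motif, 2 of them genes for active sites, and for the 2 genes with the smallest unadjusted p between 12 and 24 months. Capitals mark TGACNNNGC or CCAAT. The windows lie at chr14:54617996-54618095 on the minus strand for Psmb5, and on the plus strand at chr11:70525257-70525356 for Psmb6, chr11:97703334-97703433 for Psmb3, chr3:108256826-108256925 for Psma5 and chr11:106256085-106256184 for Psmc5.
Psmb5: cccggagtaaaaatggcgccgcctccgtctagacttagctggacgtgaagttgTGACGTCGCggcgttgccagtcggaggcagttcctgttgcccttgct
Psmb6: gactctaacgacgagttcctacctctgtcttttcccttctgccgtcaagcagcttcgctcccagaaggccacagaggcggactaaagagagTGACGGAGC
Psmb3: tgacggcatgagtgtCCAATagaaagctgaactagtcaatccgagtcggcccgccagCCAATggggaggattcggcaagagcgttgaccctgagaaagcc
Psma5: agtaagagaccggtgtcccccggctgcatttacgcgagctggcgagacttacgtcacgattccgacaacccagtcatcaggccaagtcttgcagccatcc
Psmc5: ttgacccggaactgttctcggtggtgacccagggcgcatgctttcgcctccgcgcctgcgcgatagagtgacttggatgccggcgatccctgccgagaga

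TGACNNNGC ends 39 bases before the start in Psmb5 and directly before the start in Psmb6. CCAAT occurs at 2 places in the Psmb3 window. The Psma5 and Psmc5 windows hold neither set of letters, and neither do their full 300-base promoters.

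The mean was lowest at 12 months for 11 of 14 core members and 18 of 20 regulatory members, but no single member passed the test between any 2 ages. The share of all genes with their lowest mean at 12 months was not counted, so how unusual these counts are is not known. Shares for each step are given below. Values are log2 of the RMA intensity, and a change is a difference of group means on that scale with limma's standard error (SE). A gene was called at a Benjamini-Hochberg adjusted p under 0.05 over all 13579 genes. At this threshold 0 of 34 members were called between 2 and 24 months, 12 and 2 months, or 24 and 12 months, where limma called 4.3%, 2.97% and 0% of all genes. The F test over the 3 ages called 0 members and 4.16% of all genes. At an unadjusted p under 0.05 in limma, 1 core and 1 regulatory member were higher at 24 than at 2 months (8.63% of all genes), and 1 core and 4 regulatory members were lower at 12 than at 2 months (9.93% of all genes). By the same measure 5 core and 4 regulatory members were higher at 24 than at 12 months, where 6.38% of all genes were. In the opposite directions of these comparisons there were 0 members, against 7.95%, 6.4% and 3.23% of all genes.

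The array means show the same shape. The mean log2 intensity over the 14 core members was 9.95 to 10.09 on the 5 young arrays, 9.71 to 9.89 on the 4 middle-aged arrays and 9.81 to 10.39 on the 5 aged arrays. For the 20 regulatory members it was 8.89 to 9.06, 8.56 to 8.74 and 8.64 to 9.41. All middle-aged arrays lay below all young arrays in both particles. The aged arrays spread widest: aged array 4 was the highest of all 14 arrays in both means, while aged array 2 (core) and aged array 5 (regulatory) overlapped the middle-aged range.

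**Figure D1:**
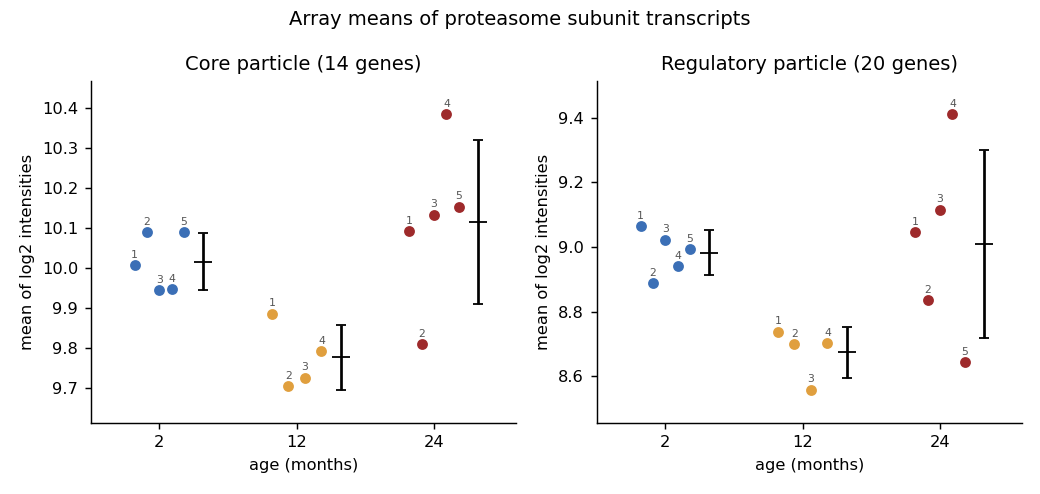
Mean log2 intensity of the core particle members (14 genes, left) and regulatory particle members (20 genes, right) on each array against age in months. Points are arrays with their replicate number, and bars are the group mean ± SD. The 4 middle-aged arrays (core 9.71 to 9.89, regulatory 8.56 to 8.74) lie below the 5 young arrays, and aged array 4 is highest.

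From 2 to 12 months, 11 of 14 core members and 20 of 20 regulatory members had a lower mean, with median changes of -0.26 and -0.25, where the median of all genes was -0.04 and 43.4% of all genes had a change above 0. From 12 to 24 months, 13 of 14 core and 18 of 20 regulatory members had a higher mean, with medians of 0.38 and 0.37 against 0.01 for all genes, of which 51.4% were above 0. These steps share the middle-aged arrays, so a low or high middle-aged group moves both. Over the whole span, 10 of 14 core members and 12 of 20 regulatory members were higher at 24 than at 2 months, with medians of 0.10 and 0.08 against -0.05 for all genes (41.9% above 0).

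The difference of the steps, late minus early, had a median of 0.59 in the core particle (13 of 14 members above 0) and 0.66 in the regulatory particle (20 of 20), against 0.04 over all genes (53.8% above 0). In limma 0 members and 0% of all genes passed for this difference, and 5 core and 6 regulatory members had an unadjusted p under 0.05 and a value above 0, as did 7.65% of all genes (below 0, 0 members and 4.23%). Few changes reached 1.5-fold: 0 members between 2 and 24 months, 1 core and 2 regulatory members between 2 and 12 months, and 1 and 2 between 12 and 24 months. The share of all genes past this limit was not counted. The largest was 1.84-fold, for Psmd10, whose signal is near the filter level. The median absolute change from 12 to 24 months was 0.38 (core) and 0.37 (regulatory), against 0.18 over all genes. From 2 to 12 months it was 0.26 and 0.25 against 0.20, and from 2 to 24 months 0.12 and 0.19 against 0.19. Between 12 and 2 months Psma5, Psmc3 and Psmd8 were lower without overlap between the groups (5.07% of all genes) and 0 members were higher (3.62%). Between 24 and 12 months Psmb5 was higher without overlap (1.41%) and 0 members were lower (1.08%), and between 24 and 2 months no member was apart in either direction (3.48% higher, 1.97% lower).

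**Figure D2:**
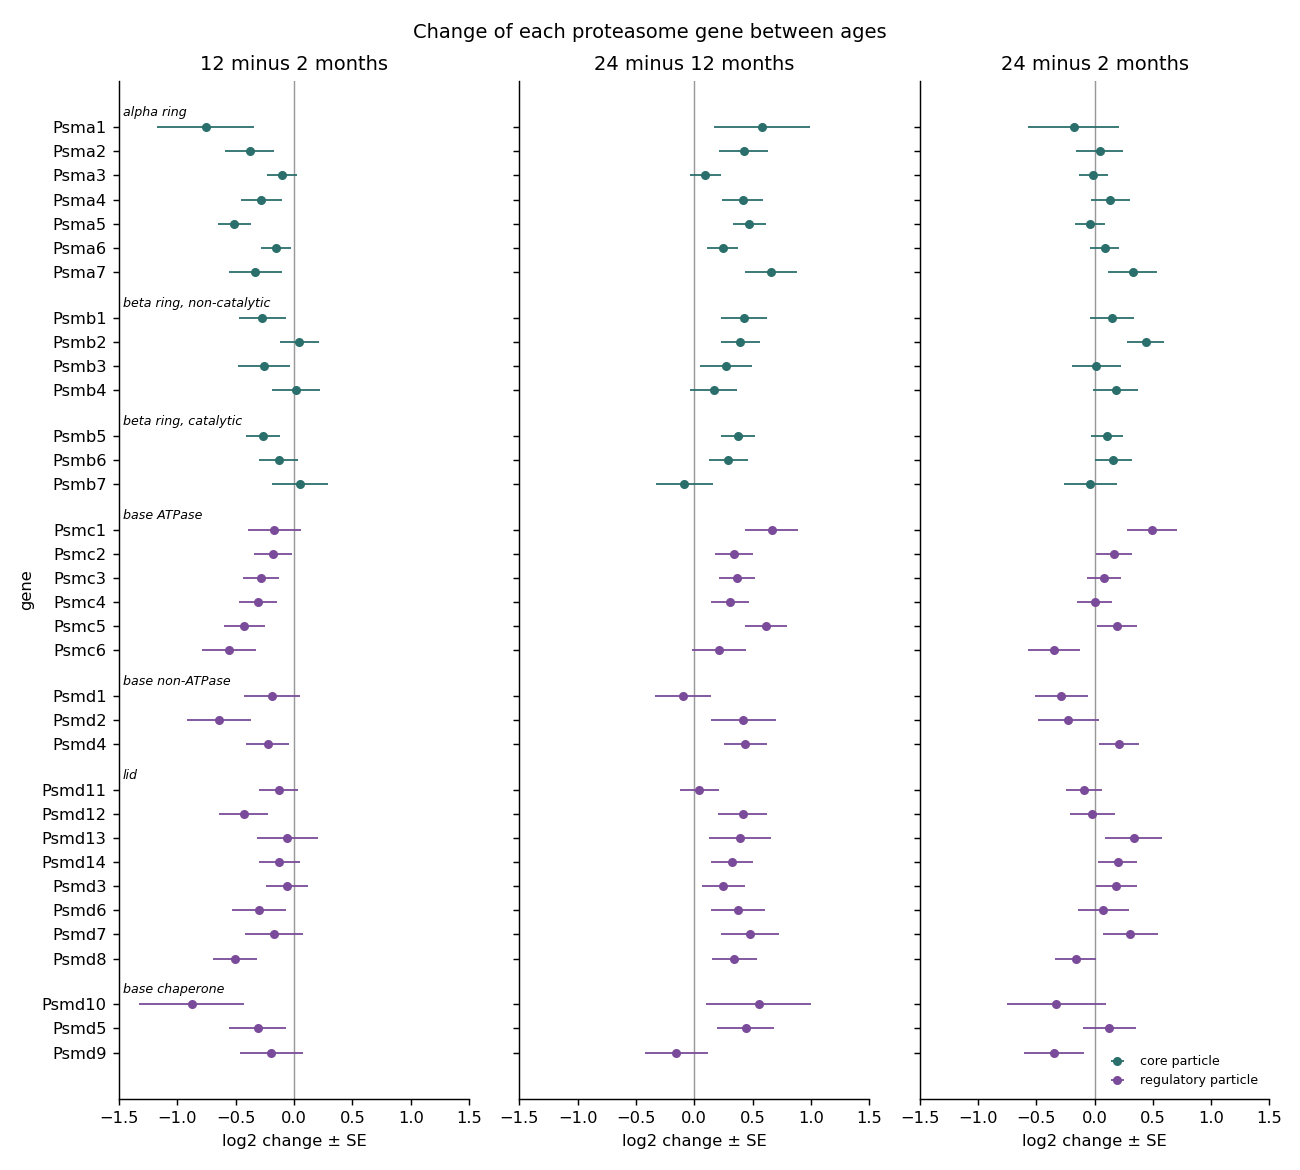
Log2 change of each of the 34 subunit genes, by role, for 12 minus 2 months, 24 minus 12 months and 24 minus 2 months. Points are limma estimates, lines are ± 1 SE, green marks core and purple regulatory members. In the left panel 20 of 20 regulatory points are below 0, in the middle panel 18 of 20 are above 0, and no point passed the adjusted test.

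Among the 7 alpha ring genes, 7 of 7 were lower at 12 than at 2 months (median -0.33) and 7 of 7 higher at 24 than at 12 months (median 0.42). Psma5, an alpha ring subunit, had the smallest adjusted p of any member. Its log2 intensities were 11.01, 11.09, 10.99, 11.09 and 11.16 on the young arrays, 10.82, 10.53, 10.26 and 10.62 on the middle-aged arrays, and 11.03, 10.77, 11.25, 11.13 and 10.97 on the aged arrays. The 4 middle-aged values were below all young values, and they overlapped the aged values through aged array 2. Its change was -0.51 ± 0.14 (SE; limma adjusted p = 0.063) from 2 to 12 months and 0.47 ± 0.14 (adjusted p = 0.366) from 12 to 24 months. The difference of the steps was 0.98 ± 0.25 (adjusted p = 0.126). Without middle-aged array 1 the first of these was -0.60 with an adjusted p of 0.0414 in limma. Over 29 alternatives it ran from -0.60 to -0.31, with adjusted p from 0.0184 to 1. It was under 0.05 in 4 others, which called 2.07% to 8.49% of all genes against 2.97% here. Its 2 kept probe sets differed in sign between 2 and 24 months (0.07 against -0.04).

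Psma7, another alpha subunit, was 8.50 ± 0.31 (SD, n = 5) at 2 months, 8.17 ± 0.29 (n = 4) at 12 months and 8.82 ± 0.41 (n = 5) at 24 months. Its aged values were 8.83, 8.13, 9.10, 9.15 and 8.92 and its middle-aged values 8.49, 8.25, 7.79 and 8.14, so 4 of 5 aged arrays were above all middle-aged arrays. Its change from 12 to 24 months was the largest of the core particle, 0.66 ± 0.22 (SE; limma adjusted p = 0.413). Psma1 had the largest difference of the core particle between 2 and 12 months, -0.76 ± 0.41 (SE; adjusted p = 0.397). Its spread was wide in every group, 7.59 to 8.75 at 2 months, 6.88 to 8.66 at 12 months and 7.22 to 9.28 at 24 months.

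The remaining alpha genes (Psma2, Psma3, Psma4 and Psma6) changed by -0.38 to -0.10 from 2 to 12 months and by 0.09 to 0.42 from 12 to 24 months. Psma4 had the smallest p among these, with a change of 0.41 ± 0.18 (SE; limma adjusted p = 0.477) from 12 to 24 months. Its middle-aged values were 8.20, 8.55, 8.19 and 8.23, with middle-aged array 2 standing above the others.

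The beta ring genes without an active site were less uniform. Of Psmb1, Psmb2, Psmb3 and Psmb4, 2 were lower at 12 than at 2 months and 4 of 4 were higher at 24 than at 12 months. Psmb2 had the largest increase of the core particle over the whole span. It was 7.76, 8.14, 7.75, 7.87 and 7.77 on the young arrays, 7.73, 7.50, 8.19 and 8.20 on the middle-aged arrays, and 8.35, 8.12, 8.11, 8.42 and 8.50 on the aged arrays. The aged values overlapped the young ones only through young array 2, and the middle-aged arrays fell into a low and a high pair. Its change from 2 to 24 months was 0.44 ± 0.16 (SE), with an unadjusted p of 0.0139 and an adjusted p of 0.152 in limma.

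The 3 active sites of the constitutive proteasome are carried by Psmb5, Psmb6 and Psmb7, which cut after hydrophobic, acidic and basic residues. Psmb5 was 10.22, 9.67, 10.02, 9.66 and 9.84 on the young arrays, 9.51, 9.69, 9.77 and 9.51 on the middle-aged arrays, and 9.94, 9.82, 10.004, 10.19 and 10.02 on the aged arrays. All aged values lay above all middle-aged values. The change was 0.37 ± 0.14 (SE; limma adjusted p = 0.443) from 12 to 24 months and 0.11 ± 0.14 (adjusted p = 0.749) from 2 to 24 months.

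Psmb6 was 10.14 ± 0.16 (SD, n = 5), 10.01 ± 0.16 (n = 4) and 10.30 ± 0.33 (n = 5) at 2, 12 and 24 months. Its groups overlapped, and its change from 2 to 24 months was 0.16 ± 0.16 (SE; limma adjusted p = 0.683), with a range of 0.041 to 0.27 when single arrays were left out. Psmb7 did not have its lowest mean at 12 months: it was 8.87 ± 0.15 (n = 5), 8.92 ± 0.52 (n = 4) and 8.83 ± 0.42 (n = 5). On the middle-aged arrays Psmb7 read 8.51, 8.42, 9.38 and 9.35, and on the aged arrays 9.22, 8.94, 8.39, 9.22 and 8.39. Each older group thus held high and low arrays around the young range of 8.72 to 9.08. The sign of its small changes turned when arrays were left out or array sets were taken into account.

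In the regulatory particle, all 6 ATPases were lower at 12 than at 2 months (median -0.29) and all 6 were higher at 24 than at 12 months (median 0.35). Psmc5 was 8.16, 7.92, 8.24, 7.96 and 7.78 on the young arrays, 7.59, 7.63, 7.81 and 7.31 on the middle-aged arrays, and 8.46, 8.09, 7.80, 8.65 and 8.02 on the aged arrays. The middle-aged array 3 alone overlapped the young and the aged ranges. The change was -0.43 ± 0.18 (SE; limma adjusted p = 0.246) in the first step and 0.62 ± 0.18 (adjusted p = 0.366) in the second, and the difference of the steps was 1.04 ± 0.32 (adjusted p = 0.2).

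Psmc1 had the largest increase of the regulatory particle between 2 and 24 months, with few differences among the young arrays. Its values were 7.96, 7.91, 7.84, 7.96 and 7.81 on the young arrays, 7.97, 7.37, 7.67 and 7.90 on the middle-aged arrays, and 8.49, 8.01, 8.86, 8.93 and 7.67 on the aged arrays. Of the aged arrays, 4 of 5 were above all young and middle-aged arrays, and aged array 5 was below all young arrays. The change was 0.50 ± 0.22 (SE; limma adjusted p = 0.252) over the span and 0.66 ± 0.23 (adjusted p = 0.415) from 12 to 24 months.

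Psmc6 was 10.27 ± 0.14 (SD, n = 5), 9.71 ± 0.49 (n = 4) and 9.92 ± 0.42 (n = 5), a change of -0.56 ± 0.23 (SE; limma adjusted p = 0.244) from 2 to 12 months. Unlike the other ATPases it stayed lower at 24 than at 2 months by its mean, at -0.35 ± 0.22 (adjusted p = 0.48), and its kept probe sets differed in sign there. Psmc3 was 9.53 to 9.74 at 2 months and 8.97 to 9.49 at 12 months without overlap. Middle-aged array 2 stood apart at 8.97, and the change was -0.28 ± 0.15 (SE; adjusted p = 0.405). Psmc2 and Psmc4 changed by -0.18 and -0.31 in the first step and by 0.34 and 0.31 in the second.

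**Figure D3:**
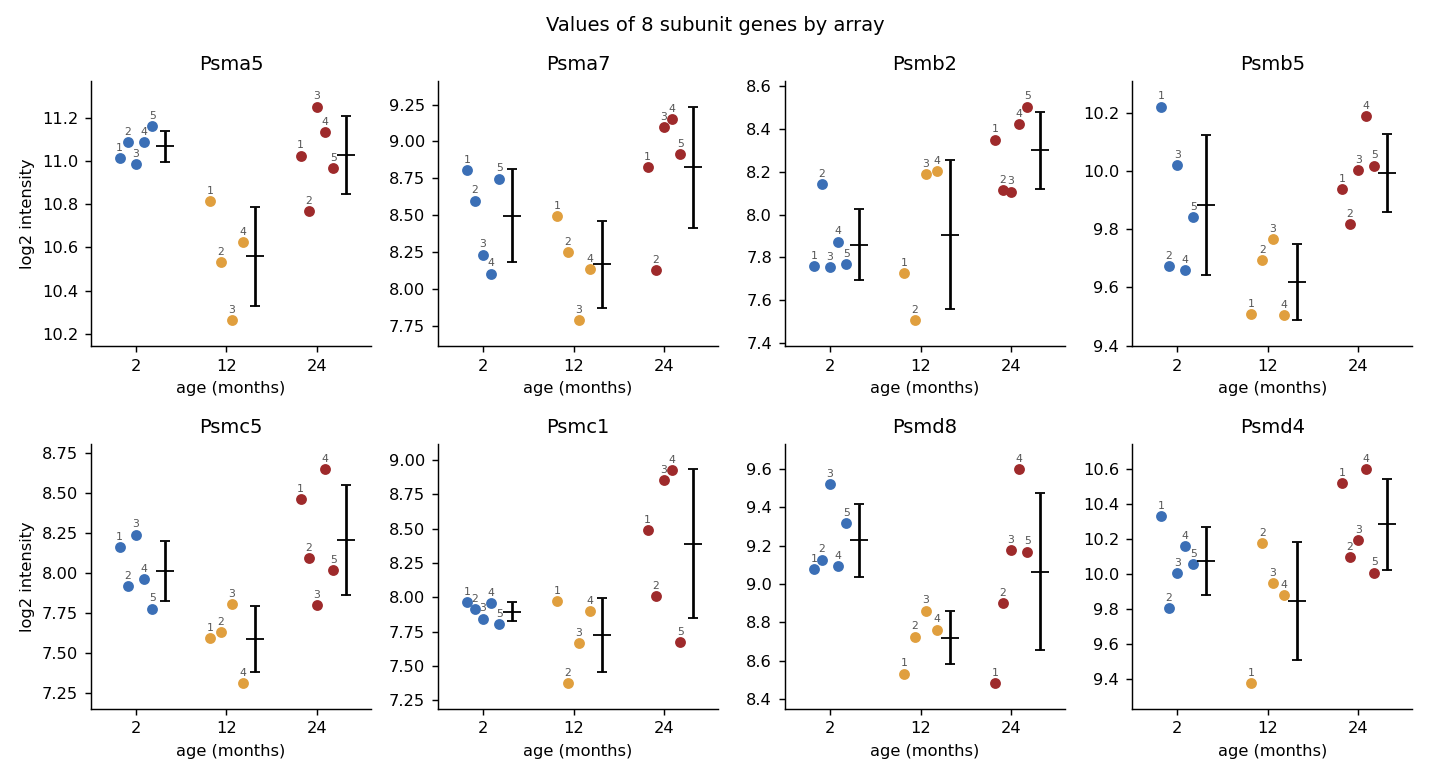
Log2 intensity of 8 subunit genes on each array against age in months, each panel on its own vertical scale. Points are arrays with their replicate number, and bars are the group mean ± SD. The 4 middle-aged arrays of Psma5 (10.26 to 10.82) and Psmd8 (8.53 to 8.86) lie below all young arrays, and those of Psmb5 (9.51 to 9.77) below all aged arrays.

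The base also holds the scaffold subunits Psmd1 and Psmd2 and the ubiquitin receptor Psmd4. Psmd2, which docks ubiquitin-like domains of shuttle factors, was 9.33, 9.55, 9.42, 9.45 and 9.02 on the young arrays and 9.11, 8.81, 8.26 and 8.66 on the middle-aged arrays. Only the highest middle-aged array overlapped the young range, and the change was -0.64 ± 0.28 (SE; limma adjusted p = 0.259). Its aged values ran from 8.39 to 9.91, across both younger groups. Psmd4 was 10.07 ± 0.19 (SD, n = 5), 9.85 ± 0.34 (n = 4) and 10.28 ± 0.26 (n = 5), a change of 0.44 ± 0.18 (SE; adjusted p = 0.472) from 12 to 24 months. Psmd1 differed from the ATPases in having its lowest mean at 24 months, with 9.56 ± 0.33, 9.37 ± 0.15 and 9.27 ± 0.52. Its change from 2 to 24 months was -0.29 ± 0.23 (SE; adjusted p = 0.587).

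All 8 lid genes were lower at 12 than at 2 months (median -0.15) and all 8 were higher at 24 than at 12 months (median 0.36), and 0 of 8 were called. Psmd8, a structural lid subunit, was 9.08, 9.13, 9.52, 9.09 and 9.32 on the young arrays, 8.53, 8.73, 8.86 and 8.76 on the middle-aged arrays, and 8.48, 8.90, 9.18, 9.60 and 9.17 on the aged arrays. All middle-aged values were below all young values, and the aged values covered both ranges. The change from 2 to 12 months was -0.51 ± 0.19 (SE; limma adjusted p = 0.187). With the 3′ minus 5′ measure described below as a covariate it was -0.69 with an adjusted p of 0.0345.

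Psmd14, the deubiquitinase that cuts the ubiquitin chain from the substrate, had close young values, 10.25, 10.22, 10.22, 10.26 and 10.21. The middle-aged values were 10.23, 10.25, 9.99 and 9.97, and the aged values 10.42, 10.12, 10.14, 11.10 and 10.37. Aged array 4 stood above the rest, and the change from 2 to 24 months was 0.20 ± 0.17 (SE; limma adjusted p = 0.614). The other lid members (Psmd3, Psmd6, Psmd7, Psmd11, Psmd12 and Psmd13) changed by -0.43 to -0.06 in the first step and by 0.04 to 0.48 in the second. Psmd13 had a middle-aged array standing apart, array 4 at 7.99 with the next at 7.13, and Psmd11 a young array, array 5 at 11.69 with the next at 11.88.

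Psmd5, Psmd9 and Psmd10 are chaperones that help assemble the base and leave the finished particle. Psmd9 had the largest decrease of the regulatory particle between 2 and 24 months, with means of 6.18 ± 0.26 (SD, n = 5) and 5.83 ± 0.47 (n = 5) and a limma estimate of -0.35 ± 0.25 (SE; adjusted p = 0.547). Its kept probe sets differed in sign, from -0.35 to 0.04. Psmd10 had the largest difference at 12 months, -0.88 ± 0.45 (SE; adjusted p = 0.36), with values of 3.65 to 5.49 at 2 months and 3.22 to 4.24 at 12 months. It was above the filter level on 7 of 14 arrays, so the size of this difference is poorly measured. Psmd5 was 6.42 ± 0.51, 6.11 ± 0.28 and 6.55 ± 0.29.

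Counted by probe set rather than by gene, with the probe sets already described included, the counts were as follows. Probe sets of the same gene are not independent, so these counts in part repeat those by gene. The shares over all kept probe sets were not counted. Of 24 kept core probe sets, 21 were lower at 12 than at 2 months and 22 higher at 24 than at 12 months. Of 39 kept regulatory probe sets, 37 were lower and 32 higher in these comparisons. Between 2 and 24 months the regulatory probe sets were divided, with 21 higher and 18 lower. More than 1 kept probe set was held by 18 symbols, Psmc3ip among them, and in 10 of these all of them had 1 sign between 2 and 24 months.

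Related genes of the pathway followed in part. The immunoproteasome subunit Psmb8, which replaces Psmb5 in cells exposed to interferon, rose between 2 and 24 months by 1.06 ± 0.20 (SE; limma adjusted p = 0.00585), with means of 5.67 ± 0.16 (SD, n = 5) and 6.74 ± 0.42 (n = 5). Psmb10, the counterpart of Psmb7, changed by 1.07 ± 0.29 (adjusted p = 0.0517), and Psmb9, the counterpart of Psmb6, by -0.09 ± 0.14 (adjusted p = 0.808). Of these 3 genes 1 was called between 2 and 24 months, where 4.3% of all genes were. On each array the immunoproteasome value minus that of its constitutive counterpart was compared between ages, as 9 exact two-sided permutation tests chosen after the values were seen. The change from 2 to 24 months in Psmb8 was larger than that in Psmb5 by 0.95 (exact permutation p = 0.00794, the smallest possible with 5 against 5 arrays; adjusted over the 9 tests 0.0477), and that in Psmb10 larger than that in Psmb7 by 1.11 (exact permutation p = 0.0159; adjusted 0.0477). Psmb9 and Psmb6 differed by -0.25 in their changes (exact permutation p = 0.397; adjusted 0.521). From 2 to 12 months the change in Psmb8 was larger than that in Psmb5 by 0.69 (exact permutation p = 0.0159; adjusted 0.0477).

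**Figure D4:**
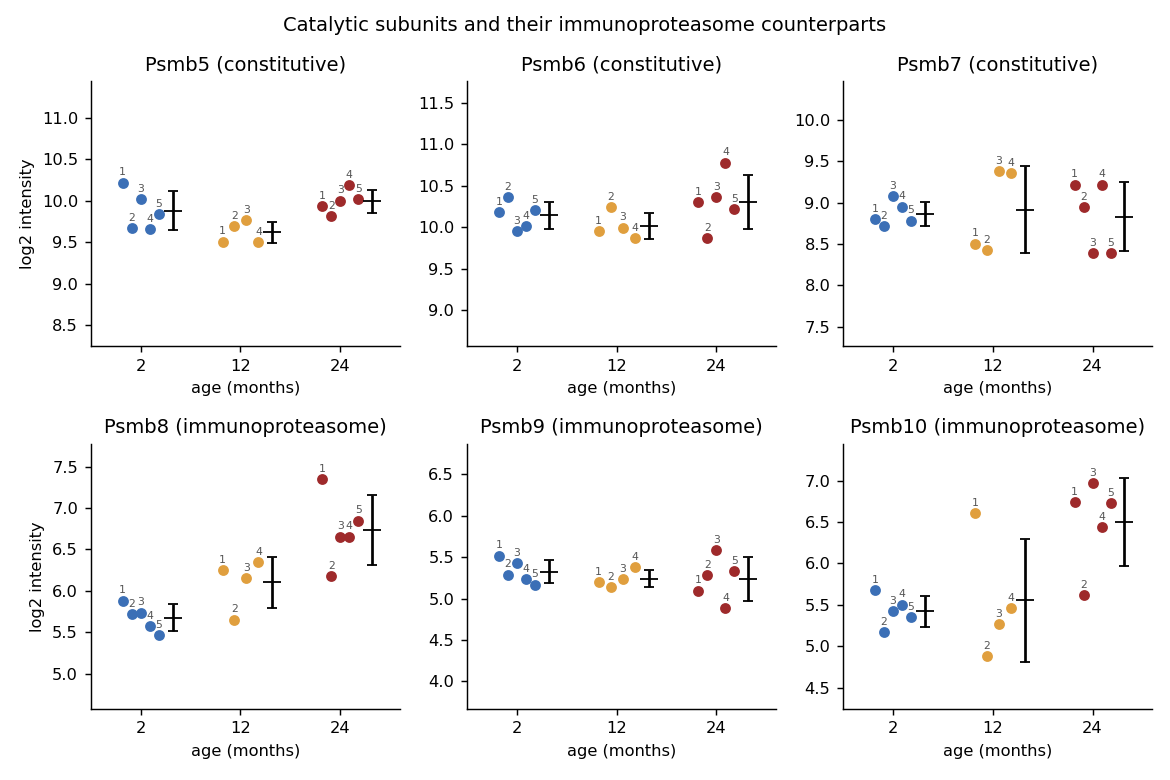
Log2 intensity of the constitutive catalytic subunits (top) and the immunoproteasome subunits that replace them (bottom) on each array against age in months. Points are arrays with their replicate number, bars are the group mean ± SD, and all panels span the same number of log2 units. Psmb8 rose from 5.67 to 6.74 between 2 and 24 months, while Psmb5 was 9.88 and 9.99, and levels of different genes are not comparable.

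Psme1, a subunit of the activator that binds the core in place of the regulatory particle, rose by 0.63 ± 0.14 (SE; limma adjusted p = 0.0142) between 2 and 24 months. It was 1 of 4 measured genes of 5 listed as activators and inhibitor, and the only one of these called (4.3% of all genes). Psme3, the nuclear activator, changed by 0.11 ± 0.27 (adjusted p = 0.891). With the 3′ minus 5′ covariate Psme1 was 0.56 with an adjusted p of 0.0874. Within array sets 1 and 2, described below, where 5 arrays of these ages remain in each, the sizes were close to those of the full fit and neither gene passed. Psme1 was 0.62 in both sets (adjusted p = 0.147 and 0.279), and Psmb8 was 1.03 and 1.13 (adjusted p = 0.106 and 0.119).

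In the other lists 0 genes were called in any comparison. Over all genes 4.3%, 2.97% and 0% were called from 2 to 24, 2 to 12 and 12 to 24 months, so 0 calls in lists this short says little. Of the assembly chaperones outside the rule, 5 of 5 measured (6 listed) were lower at 12 than at 2 months and 5 of 5 higher at 24 than at 12 months, with medians of -0.34 and 0.35. Pomp, which matures the beta ring, changed by 0.20 ± 0.23 (SE; limma adjusted p = 0.727) from 2 to 24 months. The signalosome and eIF3 genes, whose products share domains with the lid, had a like shape: 14 of 17 were lower at 12 months (median -0.30) and 15 of 17 higher from 12 to 24 months (median 0.16). Whether the lower mean at 12 months is particular to the proteasome was not tested.

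Nfe2l1 itself changed by 0.37 ± 0.19 (SE; limma adjusted p = 0.348) between 2 and 24 months, and by 0.18 ± 0.20 (adjusted p = 0.727) from 2 to 12 months. In the list for the Nfe2l1 response, which includes Nfe2l1, 7 of 8 measured genes (9 listed) were lower at 12 than at 2 months, with a median of -0.20. The exception was Nfe2l1. Of 9 measured ubiquitin, shuttle and deubiquitinase genes (15 listed), 6 were lower at 12 months, with a median of -0.20. The measured ubiquitin-activating enzyme, Uba6, changed by -0.50 in that step (adjusted p = 0.638). Of 2 listed regulatory subunits whose symbols lie outside the rule, Adrm1 had no probe set of its own. The other, Sem1, changed by -0.50 (adjusted p = 0.44) from 2 to 12 months and by 0.06 (adjusted p = 0.941) from 2 to 24 months. Among 7 measured atrophy-related ubiquitin ligases (8 listed), 3 were higher and 4 lower at 24 than at 2 months (median -0.05). Fbxo32 had the largest of these changes, -1.12 ± 0.43 (SE; adjusted p = 0.186).

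Other measures moved with age on the same arrays. All 8 satellite and myogenic markers, Pax7 among them, were measured, and their mean was 9.21 to 9.65, 8.80 to 9.32 and 8.80 to 9.27 at 2, 12 and 24 months. Against 2 months, 7 of 8 were lower at 12 months (median -0.40) and 8 of 8 at 24 months (median -0.42), with 0 of 8 called. The mean of 8 mature myofibre markers was 6.55 to 7.70, 7.42 to 8.70 and 8.56 to 10.04. From 2 to 24 months 8 of 8 rose (median 2.12) and 8 of 8 were called. From 12 to 24 months 8 of 8 rose as well (median 1.53), with 0 called, as over all genes. The mean of 6 tenocyte markers was 6.91 to 8.24, 9.52 to 11.03 and 9.80 to 10.65, with 5 of 6 called as higher at 12 and at 24 months than at 2 months. Over all genes 2.97% were called from 2 to 12 months and 4.3% from 2 to 24 months, in both directions together. Of 6 fibroblast markers 5 were measured, with list means of 10.68 to 11.21, 10.81 to 11.45 and 10.22 to 11.58. Only Dcn was called, as higher at both older ages, and the list was divided. Against 2 months, 3 were higher and 2 lower at 12 months, and 2 were higher and 3 lower at 24 months (median -0.46). Of 5 endothelial markers 3 were measured, at list means of 5.32 to 5.86, 5.00 to 5.41 and 4.65 to 6.63. Tek was called as lower at 24 than at 2 months, while the other 2 were higher there (median of the list 0.03). At 12 months 1 was higher and 2 were lower than at 2 months. Of 7 leukocyte markers 4 were measured and 0 called, at list means of 4.56 to 4.76, 4.74 to 4.94 and 4.38 to 4.97. The defining markers Ptprc, Itgam, Pecam1 and Emcn were below the filter level, and Ly6a, the gene of Sca-1, had no probe set of its own.

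The difference between 3′ and 5′ control probe sets of Gapdh and Actb is a measure of RNA integrity, larger where the signal leans more to the 3′ end. It was 4.30 ± 0.54 (SD, n = 5), 3.85 ± 0.25 (n = 4) and 3.54 ± 0.51 (n = 5) at the 3 ages. It was lowest, at 2.89, on aged array 4, which held the highest value of 6 core and 8 regulatory members. With this measure as a covariate the median change from 2 to 24 months was 0.0048 in the core and -0.02 in the regulatory particle, against -0.02 over all genes. The first component of the age-centred values, computed without the proteasome and related genes, held 31.4% of the variance and parted the arrays into 2 sets that occur at every age. Set 2 (young 2 and 5, middle-aged 1, aged 3, 4 and 5) had lower hybridization controls than set 1, with differences of -0.59, -0.76 and -0.69 log2 units at the 3 ages. The core mean was higher in set 2 than in set 1 by 0.12, 0.15 and 0.27 at the 3 ages, and the regulatory mean differed by -0.07, 0.08 and 0.12. Set 2 holds 2 of 5 young, 1 of 4 middle-aged and 3 of 5 aged arrays. Within set 1, 11 of 14 core and 20 of 20 regulatory members were lower at 12 than at 2 months, and 14 of 14 and 17 of 20 were higher at 24 than at 12 months, with a core median of 0.19 in the latter. Within set 2, with a single middle-aged array, 13 of 14 core and 14 of 20 regulatory members were lower at 12 months, and 14 of 14 and 17 of 20 were higher from 12 to 24 months. The part of these markers, RNA measures and sets in the subunit values was not tested beyond these fits.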

How the data were processed

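Per the labels' protocols, Trizol RNA of sorted cells was labelled by the 3′IVT Express method. Array intensities of 14 arrays were deposited by the authors on a linear scale, made with RMA per the submitters' processing notes. The RMA version is not given in the sources used here. Their log2 was taken without further normalization. Of 45101 probe sets, 34945 had 1 gene symbol, and 34741 of these matched RefSeq by Entrez identifier. A probe set was kept above its array's 40th percentile (log2 3.79 to 3.96) on at least 4 of 14 arrays. The kept probe set of highest mean stood for its gene, giving 13579 genes.

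All arrays entered 1 limma model (3.58.1, R 4.3.3) with age as a factor, and its moderated two-sided p-values were adjusted over all genes by Benjamini-Hochberg. The fit was tested on simulated data with independent noise, no array sets and changes larger than those of the members. That test therefore does not cover the array sets or changes of the size seen here. No 2 arrays held identical values (correlations 0.94 to 0.99). The number of arrays limits the precision. Members described array by array were the 3 with the smallest p per comparison and particle, the largest changes, the catalytic subunits, Psmd14, Psmd2 and Psmd4; other values given were chosen after they were seen. Alternatives covered filter, probe set rule, scaling, variance model, array weights, covariates, array sets, samples and threshold. The members and lists were chosen with earlier results of these data known.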

Additional observations from a re-analysis of the deposited data

Results flagged for a closer look

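In 4 of 111 groups of 4 or 5 arrays examined (each member, Psmc3ip and the 2 particle means, at each age), 1 array stood far from the others by Dixon's criterion, and chance alone flags about 1 in 20 groups. Psma4 on middle-aged array 2 was 8.55, with the next at 8.23. Psmc3 on that same array was 8.97, with the next at 9.44. The highest middle-aged value of Psmc3, 9.49 on array 1, was close to the lowest young value of 9.53. Psmd11 on young array 5 was 11.69, with the next at 11.88. Psmd13 on middle-aged array 4 was 7.99, with the next at 7.13.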

How the results depend on the processing

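Over 29 alternatives (28 for the difference of steps), the median from 2 to 12 months ran from -0.31 to -0.19 (core) and -0.34 to -0.18 (regulatory), and that from 12 to 24 months from 0.19 to 0.43 and 0.27 to 0.43. That from 2 to 24 months ran from -0.01 to 0.16 and -0.02 to 0.14. Within array set 1 the core median was 0.19 from 12 to 24 months and 0.38 for the difference of steps, and within set 2 the regulatory median for the latter was 0.46. Members called from 2 to 12 months numbered 1 (Psma5) with no dim filter, with array weights, with the array set as a term and at an adjusted p under 0.1, 2 (Psma5, Psmd8) with the 3′ minus 5′ covariate, and 0 to 1 when single arrays were left out. Over all genes these settings called 2.07%, 8.49%, 5.46%, 5.07% and 5.28%, against 2.97% here. Array weights gave 1 for the difference of steps (Psma5; 1.32% of all genes), and array set 1 gave 1 from 2 to 24 months (Psmd9, -0.82; 5.17% of all genes). Psmb10 passed from 2 to 24 months under several alternatives, and Fbxo32 with mean probe sets (-0.86). The cause was not tested.

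No sign change that follows concerns a value that passed the test. From 2 to 24 months with the covariate: Pomp -0.17, Psmb6 -0.0060, Psmb7 0.016, Psmc3 -0.046 and Psme3 -0.28. With the array set as a term: Psmb7 -0.0051 (2 to 12 months), 0.042 (12 to 24) and 0.037 (2 to 24), and Psme3 -0.00092. With mean probe sets: Psma5 0.018 and Psme3 -0.063. Within set 1 from 2 to 24 months: Pomp -0.20, Psmb5 -0.089, Psmb7 0.14, Psmc3 -0.10 and Psme3 -0.39, and from 12 to 24 months Psmb7 0.028, Psmc6 -0.0017 and Psmd8 -0.092. Within set 2 from 2 to 12 months: Psmb2 -0.23, Psmb7 -0.24, Psmc1 0.12, Psmd14 0.011 and Psmd9 0.80. From 12 to 24 months there, Psmb7 was 0.16 and Psmc6 -0.10, and from 2 to 24 months Psmb9 was 0.039, Psmd8 0.092 and Psmd9 0.067. Leaving out single arrays gave, from 2 to 24 months, Psma1 -0.45 to 0.063, Psma5 -0.095 to 0.027, Psmb7 -0.13 to 0.076 and Psme3 -0.11 to 0.36, and with no change of sign Psmb5 0.054 to 0.19, Psmb6 0.041 to 0.27, Pomp 0.068 to 0.34 and Psmd9 -0.54 to -0.23. From 2 to 12 months it gave Psmb2 -0.053 to 0.18 and Psmb7 -0.11 to 0.21, and from 12 to 24 months Psmb7 -0.25 to 0.070 and Psmd9 -0.35 to 0.12. The Psmb8 minus Psmb5 difference from 2 to 24 months ran from 0.78 to 1.12, and Psmb10 minus Psmb7 from 0.51 to 1.54.

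Replicate numbers are shared between ages, and the 13 same-number pairs correlated from -0.48 to 0.26, with 5 above 0.1. These values show no common pairing by number. They cannot exclude one, because the 2 array sets also shape the correlations. With the replicate block 0 members were called, the medians from 2 to 24 months were 0.099 (core) and 0.078 (regulatory), Psmb7 was -0.016 from 2 to 12 months, and Psmb10 passed (1.07, adjusted p = 0.0243 in limma).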
